A study of Mus musculus with 8 samples.

Results

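Ribosomal protein genes encode the protein part of the cytosolic ribosome, and they were examined here in dorsal root ganglia (DRGs) of α-Gal A(-/0) mice, a model of Fabry disease (FD), against wildtype mice. Members were chosen by name: every non-control probe whose gene name starts with Rpl or Rps and a digit, or is Rplp0, Rplp1, Rplp2 or Rpsa, without the S6 kinases and without names marked as pseudogenes. This gave 194 probes of 86 gene names among 55681 probes on the array. Of these, 189 probes of 83 gene names were well above background on all 8 arrays and were tested among 29432 tested probes. FD mice were male, lacked a functional copy of the X-linked gene for the lysosomal enzyme α-galactosidase A and were on a C57BL/6 background; wildtype mice were male C57BL/6J. Both groups were 20 to 24 weeks old and came from separate inbred colonies, so genotype and colony cannot be told apart. Lumbar DRGs (L3 to L5) of 8 mice per group were pooled by 2, giving 4 FD and 4 wildtype samples, which were measured in 1 color on the 8 arrays of 1 slide. FD samples 1, 2 and 3 and wildtype sample 1 lay in the first row of the slide and the others in the second. Genotype and slide row are therefore partly confounded.

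Ribosomes consist of a small subunit, which reads the mRNA, and a large subunit, which joins amino acids, and each contains its own set of proteins. A flexible stalk on the large subunit recruits the translation factors. The mRNAs of these proteins are among the most abundant in most cells, and they usually begin with a run of pyrimidines, through which mTORC1 signalling adjusts their translation. In sensory neurons these mRNAs are also found in axons, where proteins are made far from the cell body.

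Rps25 and Rpl15 had probes that behaved differently, and the first bases of those probes are shown with the place of each. Whether the place of a probe has a part in its value was not tested. Each probe has 60 bases; the first 30 are given 5′ to 3′, with the polyadenylation motif AATAAA in capitals where those bases hold it, and positions are those of the files on mm9.
Rps25, 3′ probe (A_52_P436318, chr9:44218247-44218306, plus strand): ttggaaaAATAAAactttattgaatcaaat
Rps25, other probe (A_55_P2137186, chr9:44216951-44218094, plus strand): aggacttatcaagctggtctcaaagcacag
Rpl15, 3′ probe (A_66_P140976, chr14:19100588-19100647, minus strand): gacatttcacaaaggccatacttaaccaca
Rpl15, other probe (A_55_P1990457, chr14:19101657-19101716, minus strand): atcagaagaaatcctgacacccagtggatc
In Rps25 the 3′ probe lay 152 bases past the end of the other probe, which spans a splice junction. AATAAA stood at bases 8 to 13 of the 3′ probe, so 47 of its bases followed the motif. On the strand of the probe, AATAAA was found in 57 of the 189 tested ribosomal protein probes (30.2%) and in 3745 of all 29432 tested probes (12.7%), but it began within the first 15 bases in only 2 of the 189, those of Rps25 and of Rpl39. The Rpl39 probe had mean log2 signals of 7.32 in FD and 7.23 in wildtype samples. It was not lower in FD, with a log2 fold change of 0.087 (SE 0.10). The other probes of Rpl39 had 0.021 and 0.089, at means of 14.96 and 14.82 in FD samples. In Rpl15 the 3′ probe lay 1009 bases downstream of the other probe and its printed bases held no AATAAA.

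The start of the transcript is the feature that these genes are best known to share and that the name rule did not use. In the RefSeq promoter table (GRCm38.p6), 64 of the gene names had 76 annotated starts, and a window of 25 bases before and 25 bases from each start was searched on the strand of the gene for a run of 8 or more bases that were C or T. Such a run was found at 34 of the 76 starts (44.7%), against 17 of 75 starts (22.7%) of mitochondrial ribosomal protein genes and 6464 of 32851 starts (19.7%) in the whole table. The first 3 of the genes that follow are shown because their probes had the lowest p values and Rps28 because 1 of its probes was among the 6 largest positive values, and 30 bases are given for each, with the longest run in capitals.
Rpl15 (chr14:18270969-18270998, minus strand): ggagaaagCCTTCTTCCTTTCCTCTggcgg
Rpl13a (chr7:45128722-45128751, minus strand): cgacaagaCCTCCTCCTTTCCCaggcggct
Rps25 (chr9:44407684-44407713, plus strand): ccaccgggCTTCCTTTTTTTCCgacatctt
Rps28 (chr17:33824562-33824591, minus strand): cccgaggaTTCCTgggtaccgcgtgcggtc
The run had 17 bases in Rpl15, 14 in Rpl13a and 14 in Rps25, where it lay upstream of the annotated start, and 5 in Rps28, the median of all starts in the table. Genes with and without the run had close values: the 32 genes with a run of 8 or more had a median of 0.064 for the mean log2 fold change of a gene, and the 29 with shorter runs had 0.080.

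Ribosomal protein mRNAs differed little between FD and wildtype DRGs with quantile normalization, which applies to all values unless another setting is named. Of the 189 tested probes, 0 were higher in FD at an adjusted p under 0.05 in limma, against a background of 1.96% of all tested probes, and 1 was lower, the 3′ probe of Rps25, against a background of 1.11% (3.07% in both directions). The median log2 fold change of the 189 probes was 0.063, a ratio of 1.04 of FD over wildtype, and that of all tested probes was 0.019. The fold changes were also narrow: 139 of the 189 lay within 0.1 of 0 on the log2 scale, and for 120 (63.5%) the whole 95% interval of limma stayed inside a 1.2-fold change in either direction, as it did for 35.0% of all tested probes. With arrays scaled to the 75th percentile, the median was 0.11 for the ribosomal protein probes and 0.027 for all tested probes. In a whole ganglion, fewer cells of a type and less RNA per cell cannot be told apart. Nothing says that the pools of a group came from separate litters or cages, so p-values measure the spread between these pools.

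**Figure D1:**
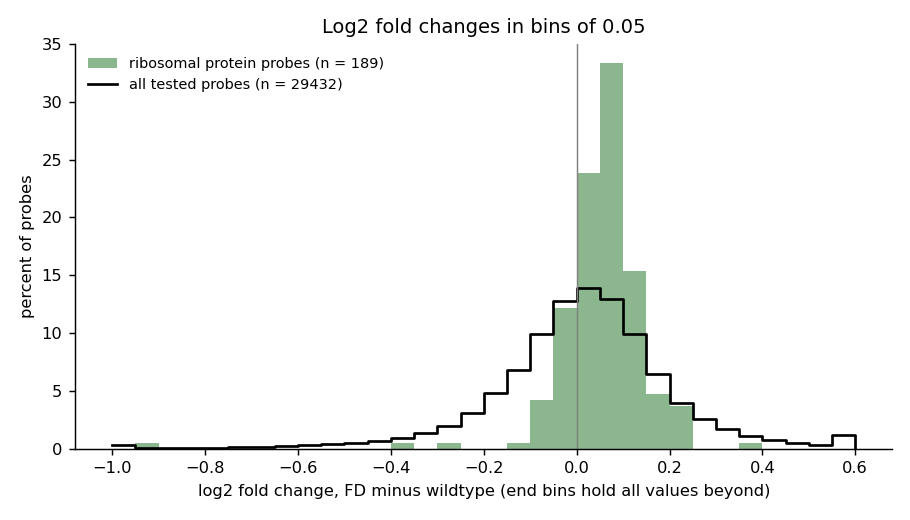
Percent of probes (y axis) in bins of 0.05 of log2 fold change, FD minus wildtype (x axis), for the 189 ribosomal protein probes (green bars) and all 29432 tested probes (black line), the end bins holding all values beyond. The green bars lie close together around a median of 0.063, with single probes of Rps25, Rpl15 and Rps4l apart at the left and 1 of Rps27a apart at the right.

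Weaker criteria also gave low counts. At an unadjusted p under 0.05, 19 of the 189 probes passed (10.1%), 16 of them higher and 3 lower in FD, against 17.6% of all tested probes. With the criteria of the methods (a p not above 0.01 before adjustment and a change of 1.2-fold or more), 2 probes passed (1.06%), both lower in FD, against 6.03% of all tested probes. With the methods' t-test 20 of the 189 had an unadjusted p under 0.05, against 14.9% of all tested probes, and 1 passed after Benjamini-Hochberg adjustment, a probe of Rps2, against 0.904% of all tested probes. The 4 FD samples all lay above the 4 wildtype samples for 17 probes of 14 genes (8.99%), against 8.30% of all tested probes, and all lay below them for 2 probes (1.06%), against 5.10%.

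The sign of the differences was less even than their size. A positive log2 fold change was found for 154 of the 189 probes (81.5%) and for 55.3% of all tested probes. This lean was not particular to these genes. Among the lists described below, the share was 86.8% for mitochondrial ribosomal proteins and 80.7% for ribosome biogenesis. It was 70.3% for translation factors and 55.6% for mTORC1 signalling. The 189 ribosomal protein probes are not independent of each other, because most of them were low or high in the same samples. For each probe the mean over the 8 samples was subtracted, and the median of these deviations over the 189 probes was 0.0074, -0.011, 0.069 and 0.060 in FD samples 1 to 4 and -0.14, 0.087, -0.034 and -0.031 in wildtype samples 1 to 4. The 2 outermost samples were thus both wildtype, and the FD samples lay between them. Wildtype 1 held the lowest of the 8 values for 132 of the 189 probes, and wildtype 2 held the highest for 87. Accordingly the median SD of a probe was 0.059 over FD samples and 0.11 over wildtype samples (n = 4 each), whereas over all tested probes these medians were 0.094 and 0.14.

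**Figure D2:**
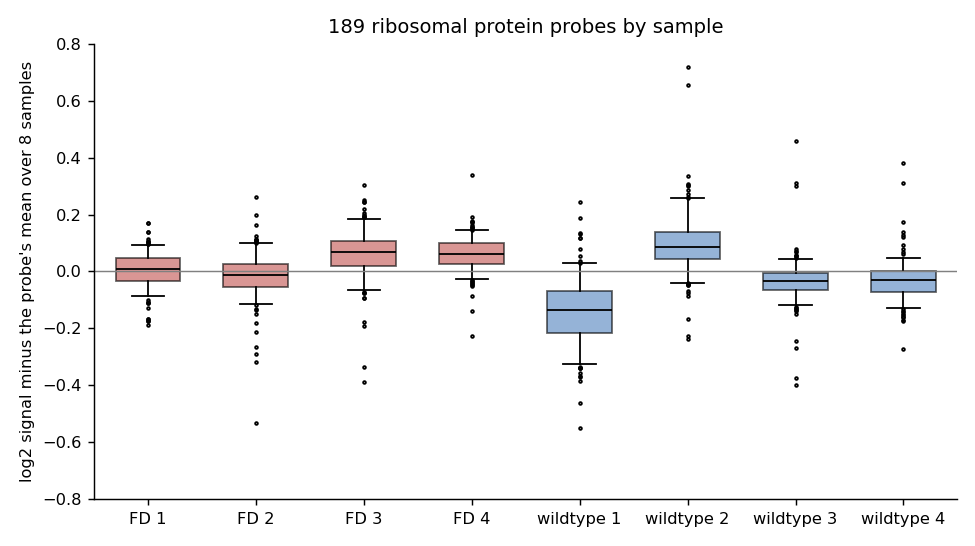
Log2 signal of each of the 189 ribosomal protein probes minus its mean over the 8 samples (y axis), for FD samples 1 to 4 (red) and wildtype samples 1 to 4 (blue); boxes show quartiles and the median, whiskers the 5th to 95th percentile, points the probes beyond. Wildtype 1 lies lowest, with a median of -0.14, and wildtype 2 highest, with a median of 0.087.

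Leaving out wildtype 1 brought the median log2 fold change of the ribosomal protein probes to 0.023, close to the 0.018 of all tested probes in the same fit, with 65.6% positive. Leaving out wildtype 2 raised it to 0.10. With both left out it was 0.061, beside 0.020 for all tested probes. The median of 0.063 was smaller than the spread of the sample medians (SD 0.070, pooled within groups), so with quantile normalization the shift of the genes as a whole was not larger than the spread between replicates. It was larger than that spread with arrays scaled to the 75th percentile, where the median was 0.11 (SD of the sample medians 0.089) with 91.0% positive. With slide row as a block the median was 0.10 with 90.5% positive, and no spread of sample medians is given for that fit. Wildtype 1 had the lowest 75th percentile of log2 signal before normalization, 9.29, where the other samples had 9.40 to 9.74, and it was the only wildtype sample in the first row of the slide. When arrays were scaled to this percentile in place of quantile normalization, the sample medians were 0.045, -0.027, 0.092 and 0.10 in FD samples 1 to 4 and -0.14, 0.11, -0.092 and -0.078 in wildtype samples 1 to 4, with the same samples outermost. Within the first row the median log2 fold change was 0.15 (FD 1, 2 and 3 against wildtype 1), and within the second it was 0.053 (FD 4 against wildtype 2, 3 and 4). The part of signal level and slide row in the result was not tested.

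Small subunit proteins bind the mRNA and decode it. Their 70 tested probes of 31 genes had a median log2 fold change of 0.055, with 57 positive and 1 called lower. Rps25, a small subunit protein known for its part in initiation at internal entry sites of some viral and cellular mRNAs, held the only called probe. In FD samples 1 to 4 the log2 signal of the 3′ probe was 6.20, 5.83, 5.49 and 6.13, against 6.61, 7.08, 6.82 and 6.75 in wildtype samples 1 to 4. The groups did not overlap, with FD lower, and the means of 5.91 ± 0.32 in FD and 6.81 ± 0.20 in wildtype samples (SD, n = 4 each) gave a log2 fold change of -0.90 (SE 0.16, adjusted p = 0.0249 in limma), or 0.536-fold. The other probe, which measures the body of the transcript across a splice junction, had log2 signals of 15.03, 15.02, 15.17 and 15.10 in FD samples and 14.87, 15.25, 15.05 and 14.98 in wildtype samples. All FD values lay within the wildtype range, with a log2 fold change of 0.040 (SE 0.085, adjusted p = 0.839 in limma).

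The call of the 3′ probe of Rps25 was lost in 9 of 19 alternatives, with the same direction in all of them. Without FD 2, wildtype 2, wildtype 3 or wildtype 4 its adjusted p in limma was 0.0842, 0.0550, 0.0643 and 0.0588, while its log2 fold change stayed between -0.995 and -0.76 over all 8 fits that left out 1 sample. Over all 19 alternatives its adjusted p ran from 0.0128 to 0.140, the highest by the methods' t-test. It was 0.0652 with slide row as a block (log2 fold change -0.76), 0.0942 in the fit blocked on replicate number, 0.0843 without a filter on dim probes and 0.0905 with both wildtype 1 and wildtype 2 left out, all in limma. Normexp background correction brought the log2 fold change to -0.44 (adjusted p = 0.0215 in limma). Rps25 also lay in a stretch of chromosome 9 with several called probes: of the 61 tested probes that start within 1 Mb of its 3′ probe, 8 were called with Rps25 itself included (13.1%, against 3.07% of all tested probes), 2 higher and 6 lower in FD. The share varied around other ribosomal protein probes. It was 4 of 12 tested probes (33.3%) around the place that the files give for the Rps2 probe with the larger value. Around Rpl10a it was 5 of 71 (7.04%), and around Rpl13a 3 of 125 (2.40%). Around Rps25, Tmem25, a transmembrane protein of neurons, had a log2 fold change of -1.86 (SE 0.080) and Nlrx1, a mitochondrial member of the NLR family, -1.14 (SE 0.13). By RT-qPCR in separate samples from backcrossed FD mice and wildtype mice, the authors found no regulation of Tmem25. Whether the stretch with called probes has a part in the value of Rps25 was not tested.

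The gene names with the largest positive values were also of the small subunit. Rps27a, which encodes ubiquitin fused to a ribosomal protein, had a probe at 0.36 (SE 0.15, adjusted p = 0.241 in limma). It had log2 signals of 6.39, 6.54, 6.58 and 6.34 in FD samples and 5.82, 6.52, 5.91 and 6.15 in wildtype samples, so the groups overlapped only through wildtype 2. Without wildtype 2 the log2 fold change was 0.51 and the adjusted p in limma was 0.0486, the lowest over its 19 alternatives, which reached 0.428. The other 2 probes of Rps27a, placed downstream, had log2 fold changes of 0.024 and 0.031. They were far brighter, with means of 16.41 and 15.48 in FD samples. Rps28, a small protein near the mRNA exit of the subunit, had 2 probes that start at the same base and gave close values, 0.24 (SE 0.078, adjusted p = 0.157 in limma) and 0.21 (SE 0.071, adjusted p = 0.163 in limma). The second had log2 signals of 15.95, 15.96, 16.09 and 16.01 in FD samples and 15.66, 15.93, 15.76 and 15.80 in wildtype samples, so the groups did not overlap but wildtype 2 nearly met FD 1.

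Rps2, at the entry of the mRNA channel, was called by the methods' t-test but not in limma, whereas the 3′ probe of Rps25 was called in limma but not by the methods' t-test. The Rps2 probe had log2 signals of 15.01, 15.02, 15.04 and 15.05 in FD samples and 14.85, 14.88, 14.88 and 14.88 in wildtype samples, with SDs of 0.018 and 0.017. Its log2 fold change of 0.16 (SE 0.047) had an adjusted p of 0.126 in limma and of 0.00945 by the methods' t-test, which takes the spread of each probe alone. Over its 19 alternatives the adjusted p reached 0.317. The files place this probe more than 1 Mb from the other Rps2 probe on chromosome 17, and the other probe had 0.067 (adjusted p = 0.584 in limma). Rps6, the phosphorylated target of the S6 kinases, had 3 probes at -0.0040, 0.026 and 0.15, and Rpsa, also known as the laminin receptor, had 4 probes between -0.020 and 0.081. Rps18, often used as a reference gene, had 0.078 and 0.094. None of these 9 probes of Rps6, Rpsa and Rps18 was called. On the negative side, 1 probe of Rps24 had -0.14 (SE 0.13) while its 3 other probes had 0.018 to 0.044.

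Large subunit proteins surround the peptidyl transferase center and the exit tunnel. Their 105 tested probes of 42 genes had a median log2 fold change of 0.076, with 88 positive and 0 called in either direction (12 had an unadjusted p under 0.05 in limma, 11 higher and 1 lower, and 12 by the methods' t-test). Rpl15, which lies in the core of the subunit, had the probes farthest apart after Rps25. Its 3′ probe had log2 signals of 12.70, 12.60, 12.71 and 12.75 in FD samples and 12.84, 13.12, 13.19 and 13.20 in wildtype samples. All FD values were below all wildtype values, with wildtype 1 the nearest to FD, and the log2 fold change was -0.40 (SE 0.088, unadjusted p = 0.00159, adjusted p = 0.0509 in limma). Without wildtype 1 it was -0.48 and the adjusted p was 0.00566, in a range of 0.00300 to 0.193 over its 19 alternatives. The other probe pointed the other way without overlap, with 15.27, 15.25, 15.29 and 15.33 in FD samples and 14.99, 15.22, 15.21 and 15.17 in wildtype samples, a log2 fold change of 0.13 (SE 0.065, adjusted p = 0.328 in limma). Around Rpl15, 0 of 14 tested probes within 1 Mb were called.

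**Figure D3:**
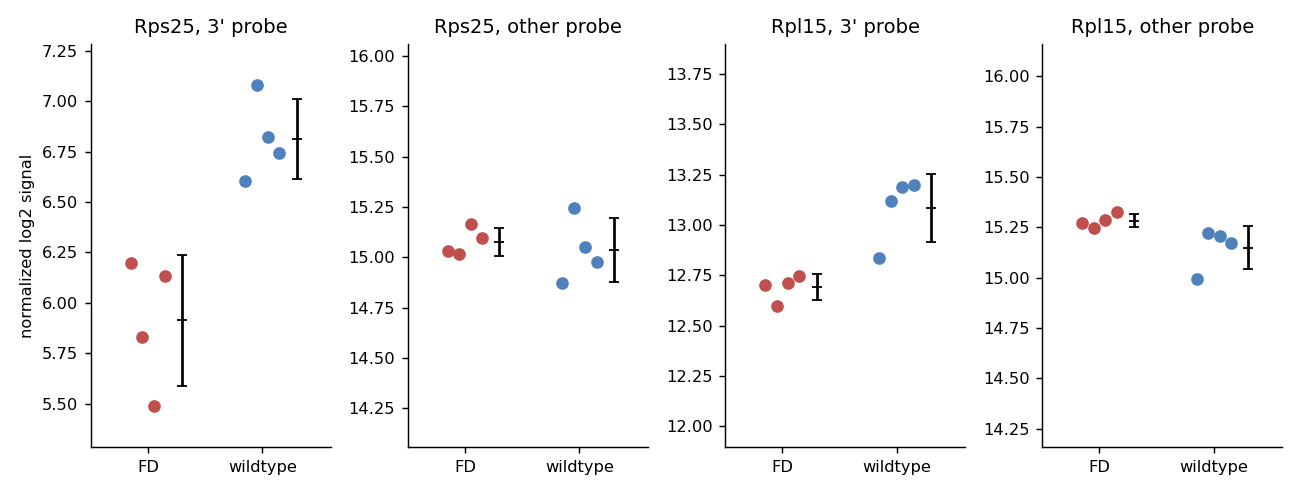
Normalized log2 signal (y axis, each panel spanning 2 units) of the 2 tested probes of Rps25 and of Rpl15 in FD samples (red) and wildtype samples (blue); bars show mean ± SD, n = 4 each. FD lies below wildtype for both 3′ probes, by 0.90 in Rps25 and 0.40 in Rpl15, and not for the other probes.

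Among the large subunit genes with positive values, Rpl13a came nearest to the threshold. It encodes a protein known for silencing inflammatory mRNAs when released from the ribosome, and it is often used as a reference gene. One probe had log2 signals of 12.55, 12.50, 12.53 and 12.40 in FD samples and 12.24, 12.34, 12.23 and 12.24 in wildtype samples. The groups did not overlap, and the log2 fold change was 0.23 (SE 0.058, adjusted p = 0.0690 in limma). When arrays were scaled to the 75th percentile it was 0.28 and the adjusted p was 0.0429, in a range of 0.0185 to 0.204 over its 19 alternatives. Its 2 other probes had 0.20 (adjusted p = 0.121) and 0.089 (adjusted p = 0.514), both in limma.

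Rpl31 and Rpl23 each had 1 probe with a larger value than the rest. For Rpl31 this was 0.23 (SE 0.081), with 10.91, 10.94, 10.94 and 11.004 in FD samples and 10.49, 10.84, 10.73 and 10.79 in wildtype samples, while 3 other probes of the gene had 0.063 to 0.078. Those 3 probes were brighter, with means of 14.84 to 15.89 in FD samples. For Rpl23 it was 0.23 (SE 0.072), with means of 11.97 in FD and 11.74 in wildtype samples, while 2 other probes had 0.12 and 0.053. These 2 were also brighter, with means of 16.04 and 16.50 in FD samples. In both genes wildtype 1 was the lowest sample. Rpl10a, the protein tagged for purifying ribosomes of chosen cell types, had 0.18 and 0.16 with no overlap between groups for either probe, and Rpl30 had 0.062 to 0.22. Rpl17 had 7 probes between -0.092 and 0.14, more probes than any other of the genes.

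The stalk had negative values in 1 gene and positive values in the other 2. Its 6 tested probes of 3 genes had a median of -0.00052, with 3 positive and 3 negative, and 0 were called (0 had an unadjusted p under 0.05 in limma or by the methods' t-test). Rplp0, the base of the stalk, had 3 probes at -0.070, -0.034 and -0.018. The first of them had log2 signals of 15.08, 15.12, 15.18 and 15.23 in FD samples and 15.16, 15.27, 15.24 and 15.21 in wildtype samples. Rplp1 had 0.017 and 0.14 and Rplp2 had 0.10 (SE 0.062). The median SD over wildtype samples was 0.049 for the stalk probes, 0.12 for those of the small subunit and 0.11 for those of the large subunit, and these differences were not tested.

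**Figure D4:**
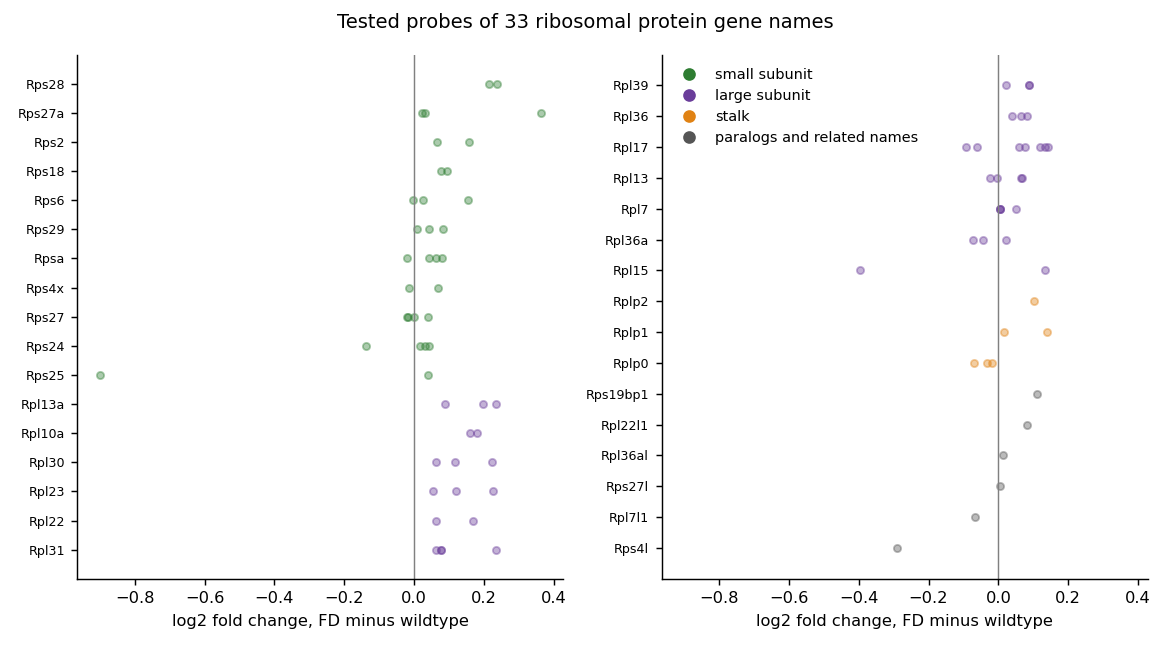
Log2 fold change, FD minus wildtype (x axis), of each tested probe (point) of the 33 gene names described in the text (y axis), ordered within the small subunit (green), large subunit (purple), stalk (orange) and paralogs and related names (grey) by the mean of a gene. Most points lie between 0 and 0.25, and only Rps25 and Rpl15 have probes more than 0.5 apart.

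Probes of the same gene mostly agreed. Of the 61 genes with 2 or more tested probes, 42 had log2 fold changes within 0.1 of each other and 56 within 0.2, and the median gap between the lowest and the highest probe of a gene was 0.061. Only Rps25 had 1 probe called and another not, and only Rps25 and Rpl15 had probes more than 0.5 apart. The dimmest probe of a gene held its largest value in Rps27a, Rps6, Rpsa, Rpl31, Rpl23 and Rpl30, among others. It held the lowest in Rps25, Rpl15, Rps24 and Rpl36a, and neither in Rpl13a, Rpl17 and Rpl39. The part of signal level in these gaps was not tested. In 39 of the 61 genes all probes were positive, in 2 all were negative and in 20 they had both signs. Some agreement comes from shared sequence, since 29 tested probes formed 16 pairs of the same gene with 30 or more bases in common. Ribosomal protein genes also have many processed copies in the genome. For 10 probes of 5 genes (Rpl13, Rpl36, Rps27, Rps29 and Rps4x) the files give a position on another chromosome than RefSeq gives for the gene, and 4 genes (Rpl13, Rpl36, Rps2 and Rps4x) had probes placed on 2 chromosomes or more than 1 Mb apart. The 10 probes had a median log2 fold change of 0.041. The values of such probes cannot be assigned to the gene or its copy.

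Rpl36a is of interest for its place, because it is the neighbor of Gla, the disrupted gene. In the files its 3 probes lie on the plus strand of chromosome X between 131122046 and 131122599, and the only Gla probe lies on the minus strand from 131122895 to 131122954, 295 bases away. Rpl36a had log2 signals of 14.49, 14.44, 14.71 and 14.52 in FD samples and 14.36, 14.77, 14.49 and 14.44 in wildtype samples for the probe with the smallest change, and the groups overlapped. Its 3 log2 fold changes were 0.021 (SE 0.10), -0.043 (SE 0.12) and -0.072 (SE 0.11), with adjusted p values in limma of 0.936, 0.883 and 0.766. The Gla probe averaged 16.59 ± 0.096 in FD and 16.62 ± 0.11 in wildtype samples (SD, n = 4 each); whether it lies in a part of the transcript lost from the targeted allele is not given in the sources used here, so it checks nothing.

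Paralogs and related names taken in by the rule had 8 tested probes of 7 gene names, with a median of 0.033 and 0 called (1 had an unadjusted p under 0.05 in limma, and 1 by the methods' t-test). Rps4l, a copy of the X-linked Rps4x, had the third largest fall, with 12.10, 12.13, 11.93 and 12.34 in FD samples and 12.30, 12.39, 12.58 and 12.39 in wildtype samples. Only FD 4 reached into the wildtype range, and the log2 fold change was -0.29 (SE 0.096, adjusted p = 0.163 in limma). Its parent Rps4x had 0.069 and -0.013. For the other pairs the copy and the parent had small values on both sides. Rpl22l1 had 0.083 where Rpl22, which is tagged in mice used to purify ribosomes, had 0.063 and 0.17, and Rpl7l1 had -0.068 where Rpl7 had 0.0048 to 0.049. Rpl36al had 0.014 and Rps27l, a p53 target in human and mouse cells, had 0.0060. Rps19bp1, which binds Rps19 and is not a ribosomal protein, had 0.11. Rpl3l, known from muscle, and Rpl10l and Rpl39l, known from testis, had no tested probe: Rpl10l and Rpl39l were well above background on 0 of 8 arrays and Rpl3l on 1.

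Other genes of ribosome production were described with lists chosen from general knowledge, beside the median of 0.019 and the background of 1.96% higher and 1.11% lower among all tested probes. Mitochondrial ribosomal proteins, which build the separate ribosome of that organelle, had 106 probes of 77 genes with a median of 0.078 and 0 called (13 had an unadjusted p under 0.05 in limma, 17 by the methods' t-test, beside 17.6% and 14.9% of all tested probes). Translation factors and some other mRNAs known for a pyrimidine run had 64 probes with a median of 0.034 and 0 called (2 and 3 had such a p). The starts of this list were not searched for the run. Wildtype 1 was again the lowest sample in the median of both lists, at -0.13 for the mitochondrial ribosomal proteins and -0.085 for the translation factors.

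In 2 further lists the called shares were close to the background of 3.07% of all tested probes in both directions. Ribosome biogenesis and rRNA synthesis had 88 probes of 62 genes, with a median of 0.089 and 2 called, both higher in FD. At an unadjusted p under 0.05 in limma, 19 of the 88 were higher and 2 lower. Among all 29432 tested probes, 3140 were higher and 2054 lower (17.6% in both directions). The share of higher probes was thus larger in this list than among all tested probes, and that of lower probes smaller. By the methods' t-test 20 had an unadjusted p under 0.05, beside 14.9% of all tested probes. Wildtype 1 was the lowest sample in the median of this list too, at -0.13. Ppan, required for maturation of the large subunit, had log2 signals of 11.71, 11.79, 11.69 and 11.64 in FD samples and 10.95, 11.06, 11.06 and 11.04 in wildtype samples, a log2 fold change of 0.68 (SE 0.057, adjusted p = 0.000523 in limma). Pes1, a nucleolar protein of the same pathway, had 1 probe called higher at 0.32 (SE 0.064, adjusted p = 0.0339 in limma) and another probe at 0.051. Among 36 probes of mTORC1 signalling and the S6 kinases, with a median of 0.0047, 4 had an unadjusted p under 0.05 in limma and 2 by the methods' t-test, and 1 was called. This was Eif4ebp1, which encodes a repressor of cap-dependent initiation that mTORC1 switches off, with 10.50, 10.57, 10.66 and 10.58 in FD samples and 10.20, 10.23, 10.23 and 10.29 in wildtype samples, a log2 fold change of 0.34 (SE 0.055, adjusted p = 0.0149 in limma). In all 3 probes, which were picked by their call, the groups did not overlap. All FD samples lay above all wildtype samples for 8.30% of all tested probes.

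Across the arrays, 56.5% to 60.8% of probes were well above background and 0 spots were saturated; precision is limited by having 4 arrays per group. All 13 sensory neuron markers and all 6 satellite glia markers were measured on all arrays and 0 of them were called. The markers of Schwann cells, fibroblasts, endothelium, macrophages and erythrocytes also had 0 called. Beside 3.07% of all tested probes, 0 calls among so few markers says little. Median log2 fold changes were -0.033 for sensory neurons, 0.029 for satellite glia, -0.15 for Schwann cells and -0.085 for fibroblasts. They were -0.21 for endothelium, -0.11 for macrophages and -0.41 for erythrocytes, beside 0.019 for all tested probes. Summed levels of the 6 fibroblast markers ran from 105001 to 119053 in FD and from 124138 to 144003 in wildtype samples, and those of the 6 endothelial markers from 7925 to 8797 in FD and from 8858 to 10124 in wildtype samples. Of the 4 liver markers, 2 were measured on all arrays and 1 of these was called lower in FD, Cyp2e1, at 6.98 ± 0.083 in FD and 7.92 ± 0.38 in wildtype samples (SD, n = 4 each), with a log2 fold change of -0.93 (SE 0.17, adjusted p = 0.0235 in limma). Alb and Apoa1 of liver and Ckm, Myh1, Myh4 and Tnnt3 of muscle were not well above background on all arrays. The part of cell type proportions in the values above was not tested.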

How the data were processed

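Total RNA of 8 samples (4 FD, 4 wildtype, 2 mice each) was labelled with Cy3 and hybridized to Agilent mouse arrays. The deposited spot intensities were read from the scans, background-adjusted and detrended by the authors in Agilent Feature Extraction 10.7.3.1 (version from the submitters' processing notes). A second deposited file holds values that the authors quantile normalized in GeneSpring, in log2 units; it served as an alternative. It holds only columns of these samples.

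Here control spots and outlier spots were left out. Outlier spots numbered 93 to 141 per array in the first slide row and 196 to 221 in the second. Log2 processed signals were averaged over the spots of a probe, and probes were quantile normalized with limma 3.58.1 in R 4.3.3. A probe was tested when at least 0.5 of its used spots were well above background on all 8 arrays. FD and wildtype were compared with limma (linear model, empirical Bayes; 29432 probes) and p-values were adjusted by Benjamini-Hochberg over all tested probes; called means an adjusted p under 0.05. Log2 fold changes are FD minus wildtype, with standard errors of limma. The fit was tested on simulated data. Quantile normalization makes the distributions of all arrays equal, so a shift common to most probes cannot be seen. A shift shared by many bright probes, such as those of these genes, can also be made smaller.

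Members and lists were chosen with earlier results of these data known. Genes named are those with a called probe, the 6 largest positive and 6 largest negative values, genes with disagreeing probes, up to 6 probes without overlap each way, the stalk, Rpsa, Rps6, Rps27a, Rpl13a, Rps18, paralogs with their parents, called neighbors and list members, and Gla; some of these are not reported here. The names of Tmem25 and Nlrx1 among the called neighbors, the place of Rpl36a beside Gla and the Rpl39 probe with an early AATAAA were chosen after their values were seen. RefSeq symbols were found by accession for 173 of the 194 probes, and 0 differed from the names in the files. Alternatives were another scaling, background correction, filter, test, replicate block, slide row, array weights, variance prior, and leaving out each sample.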

Additional observations from a re-analysis of the deposited data

Results flagged for a closer look

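Of the 41 probes named under the rule and the median over all ribosomal protein probes, each of the 84 groups of 4 samples was searched for a sample whose gap to the nearest other exceeded Dixon's critical value, taken as a part of the range of the group, which chance gives in about 1 of 20 groups. This picked out 3 values. Wildtype 2 was high at 12.34 for a probe of Rpl13a, where the next wildtype sample had 12.24, and high at 13.76 for a probe of Rps18, where the next had 13.58. FD 2 was low at 15.43 for a probe of Rps27a, where the next FD sample had 15.49.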

How the results depend on the processing

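The median log2 fold change of the ribosomal protein probes was positive in all 20 settings in which it was computed again; it moved by more than the spread between samples only within slide row 1, where it was 0.15, and leaving out single samples gave 0.023 to 0.10. Leaving out single samples gave 408 to 1043 called probes in all, 0 to 1 ribosomal protein probes called higher, 0 to 2 called lower and 2 to 5 at the methods' criteria. Of the ribosomal protein probes, scaling to the 75th percentile called 1 higher, Rpl13a, and made 2 genes with disagreeing probes, Rps25 and Rpl13a. Normexp called 2 lower, the 3′ probes of Rps25 and Rpl15. Without a filter on dim probes 556 probes were called in all and 0 ribosomal protein probes were lower. The methods' t-test called 266 in all, with 1 ribosomal protein probe higher, 0 lower and 1 at the criteria. With the replicate number as a block 284 were called in all and 0 ribosomal protein probes were lower; same-numbered samples did not deviate together (r of -0.25 to 0.063 across tested probes), so they share only a number. With slide row as a block 0 were lower and 5 passed the criteria. Array weights called 2102 in all, with 2 ribosomal protein probes higher, 2 lower and 4 at the criteria, and the trended robust prior called 2 higher and 2 lower. The last settings were chosen after seeing the data: with 1 probe a gene 0 were lower and 0 passed the criteria, and with both wildtype 1 and wildtype 2 left out 4 passed the criteria. The methods' criteria made 2 genes with disagreeing probes, Rps25 and Rpl15. Of 779 values of the 41 named probes under other settings, 725 kept their sign and call, 12 gained and 9 lost a call, and 33, of 13 probes within 0.092 of 0, changed sign without being called. The cause of these differences was not tested.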
